A study of Mus musculus with 6 samples.

Results

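Kruppel-like factors are zinc-finger transcription factors that bind GC-rich and CACCC-type DNA. The members Klf2, Klf3, Klf4, Klf5, Klf6, Klf7, Klf9, Klf10, Klf11 and Klf13 were followed here through a pulse of BMP6 in cultured adult mouse muscle stem cells. They were taken by gene symbol from the deposited expression table, with the probe set of the highest mean over the 6 arrays standing for a gene, and made up 10 of 20163 genes with a symbol. Each had 1 probe set, so that choice changed nothing, and the probe sets themselves were chosen by their mean level. The list and its emphasis on Klf10 were drawn up with the response of Klf10 in these data already known, so its values and its p in the fit across all genes describe these arrays and are not independent support.

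Muscle stem cells of female C57BL/6J mice aged 6 to 8 weeks were expanded on Matrigel for 2 days and kept for 6 h in serum-free medium with 200 ng/ml of ALK3-Fc, a soluble BMP receptor that captures BMPs carried over from serum. The BMP6 group (3 arrays) then received 100 ng/ml BMP6 for 1 h, and the vehicle group (3 arrays) received the solvent alone for the same time. The question of the series is whether BMPs act directly on Notch pathway genes, and the short pulse limits the comparison to early transcripts. The third vehicle sample is numbered replicate 3 in its title but mouse 2 in its source name, while the third BMP6 sample is given mouse 3. In the column headers of the deposited table, arrays of the same replicate number share a code, the third replicate included, and the labels do not say what the code stands for. Values are log2 expression made with RMA, so that a difference of 1 is a factor of 2.

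BMP6 is a ligand of the TGF-beta superfamily that signals through SMAD1, SMAD5 and SMAD9, whereas TGF-beta itself signals through SMAD2 and SMAD3. Klf10 and Klf11 are also known as TGF-beta inducible early genes. They are repressors that recruit the Sin3 co-repressor complex, and Klf10 is known to repress Smad7, the inhibitory SMAD that closes the pathway. The other members differ in partners and effect. Klf9 and Klf13 also bind Sin3, Klf3 represses through CtBP, and Klf2, Klf4, Klf5, Klf6 and Klf7 act mainly as activators, with Klf4 able to do both.

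The cultures carried the transcripts that define the labelled cell type. Over the 6 arrays Myod1 averaged 12.20, Des 11.94, Myf5 10.07 and Pax7 8.86, and all 10 muscle stem cell and myogenic markers lay above the median gene mean of 6.41. Above that median lay 0 of 9 endothelial, 1 of 9 immune, 3 of 9 fibro-adipogenic, 3 of 7 smooth muscle and pericyte and 4 of 7 Schwann cell markers. None of these 5 lists held a gene past the threshold in limma. At an unadjusted p under 0.05, 1 immune marker and 2 fibro-adipogenic markers were lower and 1 smooth muscle and pericyte marker was higher. The average level of the fibro-adipogenic list was 5.47 to 5.71 in BMP6 and 5.68 to 5.71 in vehicle, and of the immune list 4.95 to 5.04 in BMP6 and 4.99 to 5.17 in vehicle. Their part in the results below was not tested. In such bulk RNA, more cells of a type and more RNA per cell cannot be told apart.

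Klf10 was the member that rose. Its values were 10.61, 10.47 and 10.48 on BMP6 arrays 1, 2 and 3, against 9.27, 8.96 and 9.43 in the vehicle replicates. All 3 BMP6 values lay more than a unit above the highest vehicle value, while the vehicle arrays were spread more widely, with SDs of 0.08 in BMP6 and 0.24 in vehicle (n = 3 each). The log2 fold change was 1.30 (SE 0.12), a 2.47-fold rise with a 95% interval of 2.06 to 2.95 (limma adjusted p = 0.00223 over 20163 genes). By replicate number the difference was 1.34, 1.51 and 1.05, and without the third replicate of both groups the log2 fold change was 1.43 (limma adjusted p = 0.00707). It was the gene with the 8th largest log2 fold change and the 6th lowest p of all genes. The threshold was an adjusted p under 0.05, which 17 genes passed upwards (0.0843% of all genes). No gene passed downwards in limma (0%), although 356 were lower at an unadjusted p under 0.05. When all 34760 probe sets of the array were tested together, including those without a symbol, 3 passed and Klf10 did not (adjusted p = 0.154, with the same fold change).

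Klf11, the relative of Klf10 that is also TGF-beta inducible, had an estimate close to 0. Its values were 8.63, 8.54 and 8.39 in BMP6 and 8.59, 8.50 and 8.44 in vehicle. The groups overlapped almost fully, and replicate 1 was the highest and replicate 3 the lowest array of each group. The fold was 1.00 with a 95% interval of 0.880 to 1.15 (a log2 difference of 0.01 with an SE of 0.09; adjusted p = 1 in limma). An upward response of Klf11 as large as that of Klf10 lay far outside this interval. The difference between the responses of Klf10 and Klf11 was 1.31, 1.48 and 1.11 on the log2 scale in replicates 1, 2 and 3.

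**Figure D1:**
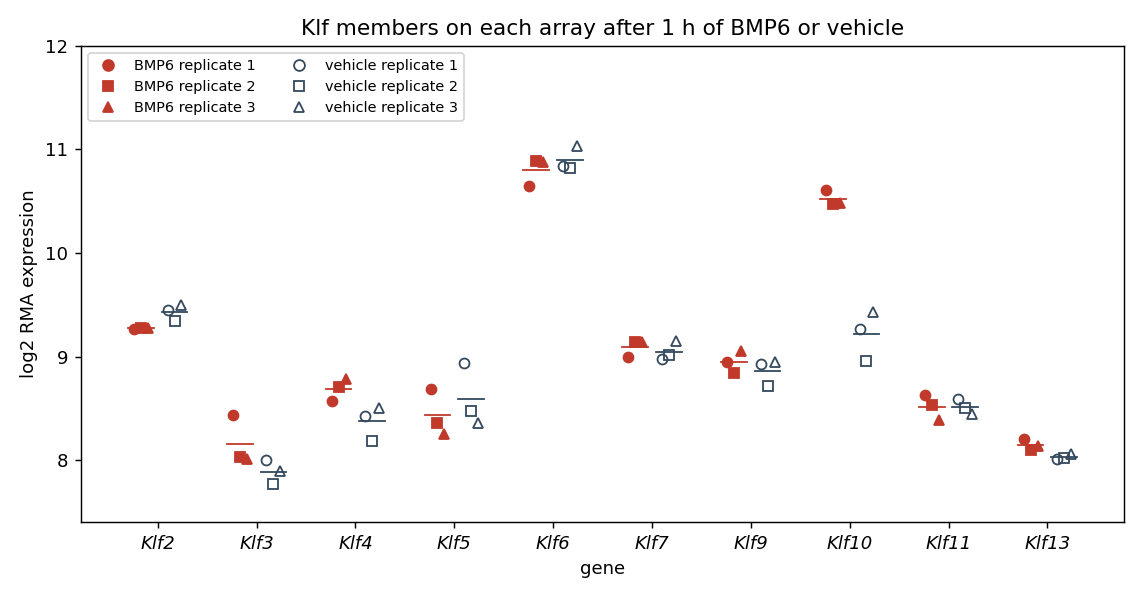
Log2 RMA expression of the 10 Klf members on each array, with BMP6 as filled red symbols on the left of each gene and vehicle as open blue symbols on the right. Symbol shapes give the replicate number and short lines the group means (n = 3). Klf10 is the gene whose groups are clearly apart, at 10.47 to 10.61 in BMP6 and 8.96 to 9.43 in vehicle.

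As a pair, Klf10 and Klf11 had a mean log2 fold change of 0.65, against 0.05 for the other 8 members. Their difference was 0.60 (0.67, 0.65 and 0.49 in replicates 1, 2 and 3). Klf11 alone differed from the mean of those 8 by -0.05, or 0.02, -0.09 and -0.06 by replicate. No test is given for these means, since the members were chosen with the results known. The 9 members other than Klf10 lay between 0.895-fold and 1.24-fold of vehicle, with a median log2 fold change of 0.05, where the median of all genes was -0.0013.

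Among the 9 others the highest was Klf4, the zinc-finger factor known from the induction of pluripotency, which in cultured myoblasts is induced with Klf2 during differentiation. Its values were 8.57, 8.71 and 8.78 in BMP6 and 8.43, 8.18 and 8.51 in vehicle. The groups did not overlap, but the lowest BMP6 and the highest vehicle array lay close together, and the difference by replicate number was 0.14, 0.53 and 0.28. The fold was 1.24 (95% interval 1.06 to 1.45; log2 fold change 0.31, SE 0.10). In limma the p was 0.0112 before adjustment and 1 after it, so Klf4 did not pass. By size, 0.734% of all genes had a larger log2 fold change in either direction.

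Klf3, which represses through CtBP and in muscle also works with serum response factor, came next. It stood at 8.43, 8.03 and 8.01 in BMP6 and at 8.00, 7.77 and 7.90 in vehicle. The BMP6 arrays lay above the vehicle arrays, with replicate 1 the highest array of each group. The fold was 1.21 (95% interval 1.00 to 1.45; log2 fold change 0.27, SE 0.12), which did not pass (limma adjusted p = 1). Without BMP6 replicate 1 the log2 fold change was 0.13.

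Klf2, known as a quiescence factor of T cells and a flow-responsive factor of endothelium, had a small difference in the other direction. It stood at 9.26, 9.28 and 9.28 in BMP6 and at 9.45, 9.35 and 9.50 in vehicle. The BMP6 arrays were nearly identical and all lay below the vehicle arrays. The fold was 0.896 (95% interval 0.799 to 1.00; a log2 difference of -0.16 with an SE of 0.07), and the adjusted p in limma was 1. Klf2 and Klf4, which share the upstream kinase Erk5, thus had log2 differences of opposite sign, and neither passed.

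Klf13, a Sin3-binding member known as a regulator of chemokine expression in T cells, had values of 8.20, 8.10 and 8.14 in BMP6 and 8.01, 8.02 and 8.06 in vehicle. These groups also did not overlap, though the fold was only 1.08 (95% interval 0.970 to 1.21, limma adjusted p = 1). Klf9, a Sin3-binding factor induced by glucocorticoids, ranged from 8.84 to 9.05 in BMP6 and from 8.71 to 8.95 in vehicle, with a fold of 1.06 (0.919 to 1.22). Its groups overlapped, although the BMP6 array was the higher in each replicate number.

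Klf5, an activator that works with MyoD at muscle genes in myoblasts, differed mainly between replicate numbers. It stood at 8.69, 8.36 and 8.25 in BMP6 and at 8.94, 8.48 and 8.36 in vehicle. Replicate 1 was high in both groups, and the BMP6 array was the lower in each replicate number, by 0.25, 0.11 and 0.12. The fold was 0.895 (95% interval 0.701 to 1.14, limma adjusted p = 1).

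Klf6, an injury-responsive factor, was bright in both groups, from 10.65 to 10.89 in BMP6 and from 10.82 to 11.03 in vehicle (fold 0.938, 95% interval 0.809 to 1.09). Klf7, known for its role in neuronal development, lay between 9.00 and 9.14 in BMP6 and between 8.97 and 9.15 in vehicle (fold 1.03, 0.910 to 1.17). Both had overlapping groups and an adjusted p of 1 in limma.

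**Figure D2:**
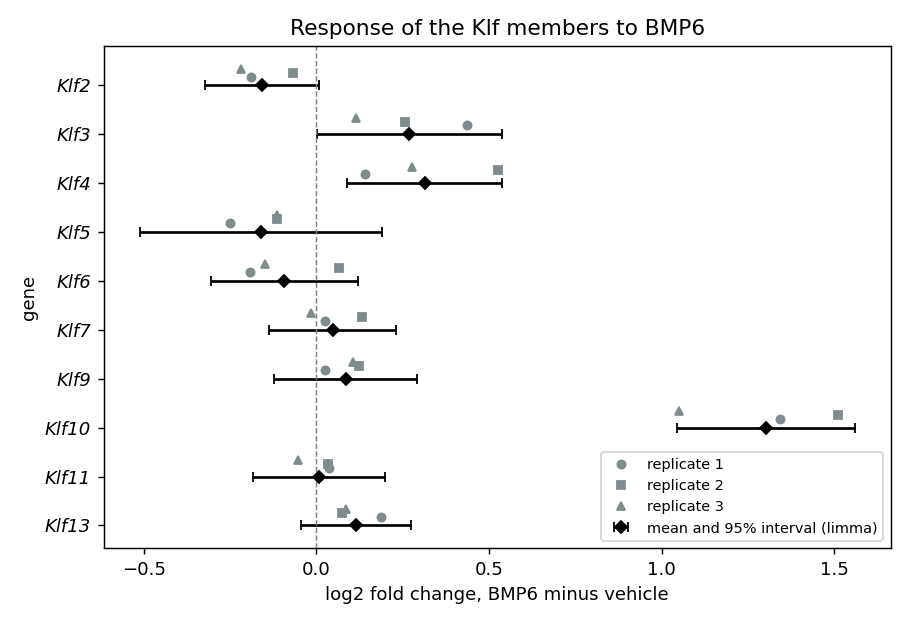
Log2 fold change of each Klf member, BMP6 minus vehicle. Black diamonds and bars are the limma estimates with 95% intervals (n = 3 each), and grey symbols are the differences between arrays of the same replicate number. Klf10 lies at 1.30, and the others lie between -0.16 and 0.31.

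Counted over the members, 1 of 10 was called higher and 0 lower in limma, against 0.0843% and 0% of all genes. At an unadjusted p under 0.05, 3 of 10 were higher (Klf3, Klf4 and Klf10) and 0 were lower, where the shares over all genes were 1.4% and 1.77%. The BMP6 values all lay above the vehicle values in 4 of 10 (Klf3, Klf4, Klf10 and Klf13), against 3.84% of all genes, and all below them in 1 of 10 (Klf2), against 3.86%. Among genes above the median mean those shares were 4.81% and 2.64%. All 10 members lay above that median, between the 75.2 and 97.8 percentiles of gene means. These counts come from a list drawn up with the results known and describe only these 10 genes.

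**Figure D3:**
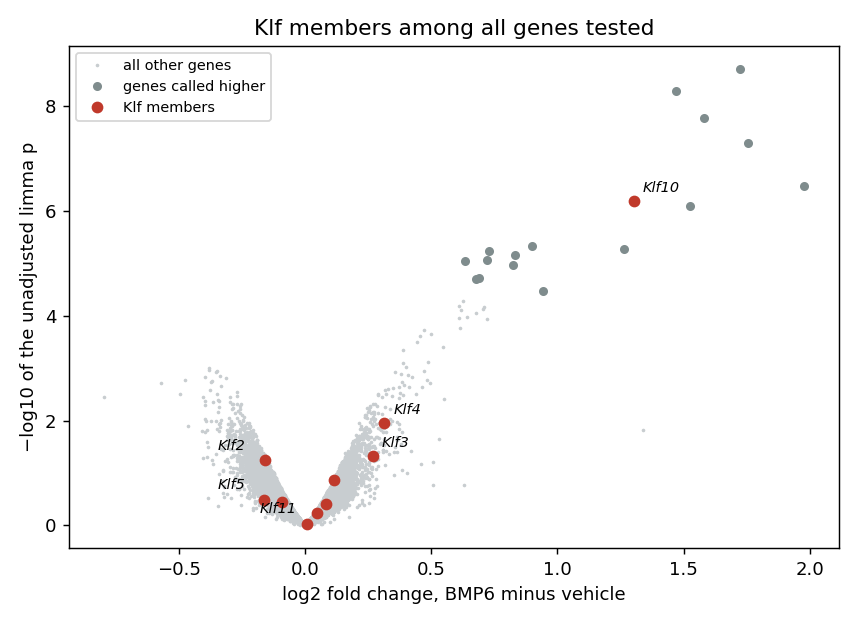
Log2 fold change, BMP6 minus vehicle, against the unadjusted limma p on a −log10 scale for 20163 genes. Grey circles are genes called higher and red circles the 10 Klf members, of which 6 are named. Klf10 stands among the 17 genes called higher, and none of the other members was called.

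The variation of the members over the 6 arrays divided in different ways. For Klf10, treatment accounted for 95.3% of the sum of squares and replicate number for 2.73%. For Klf11 the shares were 0.143% for treatment and 93.0% for replicate number, and for Klf5 they were 11.6% and 86.5%. Over all genes the median shares were 9.9% and 50.6%, with 1 and 2 of the 5 degrees of freedom. Replicate number took the larger share in 6 of the 9 members other than Klf10, namely Klf3, Klf5, Klf6, Klf7, Klf9 and Klf11. The medians over all genes lean the same way, and Klf3 was nearly even, at 46.1% for replicate number and 43.6% for treatment. The full range of Klf11 was only 0.24, so its large share is of a small variation.

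Myog, the differentiation factor myogenin, is set beside Klf11 and Klf5 after its values were seen. Its BMP6 values were 8.65, 8.33 and 6.85 for replicates 1, 2 and 3, and its vehicle values 8.75, 7.94 and 7.03. In all 3 genes replicate 1 was the highest and replicate 3 the lowest array of each group. Some other myogenic genes were ordered otherwise, with Cdh15 and Itga7 lowest in replicate 1 of each group and Myf5 highest in replicate 3 of each. Mef2c and Npnt, from the list of the Mek5, Erk5 and Mef2 axis below, had the same order as Myog in each group.

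**Figure D4:**
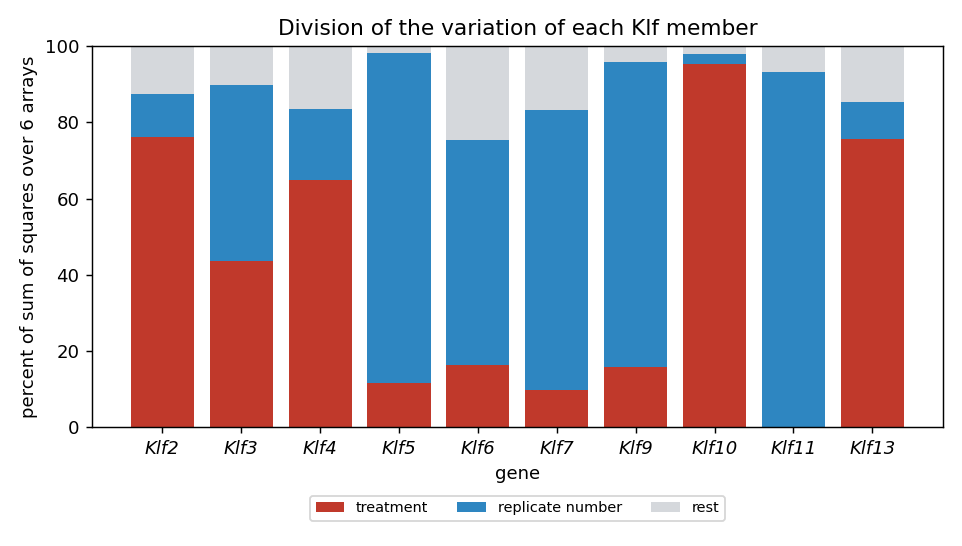
Division of the sum of squares of each Klf member over the 6 arrays into treatment (red), replicate number (blue) and the rest (grey), in percent. Treatment takes 95.3% for Klf10, and replicate number takes 93.0% for Klf11 and 86.5% for Klf5.

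Another 7 Klf genes were measured outside the list of members, and none passed in limma. Their log2 fold changes ran from -0.17 to 0.01, with a median of -0.07, and 0 had an unadjusted p under 0.05. Klf17 was at -0.17 (SE 0.09), Klf1, the erythroid factor, at -0.15 (SE 0.15), and Klf8, which like Klf3 represses through CtBP, at -0.14 (SE 0.08). Only 3 of these 7 lay above the median mean. The 9 Sp factors, the closest relatives of the family by zinc finger, held no call, with 1 at an unadjusted p under 0.05, the osteoblast factor Sp7 (log2 fold change 0.20, SE 0.08). Sp6 was at -0.21 (SE 0.10) and Sp5 at 0.11 (SE 0.08).

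The lists of partners and upstream genes of the Klf proteins held no call. Of 12 measured co-repressor genes, among them Sin3a, Sin3b, Ctbp1 and Ctbp2, 0 were called by limma (0 before adjustment at p under 0.05), and their log2 fold changes lay between -0.04 and 0.09. Hdac1, a histone deacetylase of the Sin3 complex, and Ncor1, a nuclear receptor co-repressor, both stood at 0.09 (SE 0.10 and 0.09). Of 10 ubiquitin ligases and related modifiers 0 were called (also 0 before adjustment), with Itch at 0.11 (SE 0.08) and Smurf2, which also targets SMADs, at 0.11 (SE 0.09). The 8 genes of the Mek5, Erk5 and Mef2 axis upstream of Klf2 and Klf4 gave the same counts. Mef2a, a muscle transcription factor, was at 0.18 (SE 0.09), and the kinase gene Map3k3 at 0.15 (SE 0.08). So did the 9 glucocorticoid-inducible genes set beside Klf9, with Zbtb16 at -0.15 (SE 0.08) and Tsc22d3 at -0.13 (SE 0.08).

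Genes of SMAD signalling rose beside Klf10, in a list whose response in these data was known when it was chosen. Of 13 measured SMAD target and feedback genes, 8 rose and 0 fell in limma, and the median log2 fold change was 0.83. They were Smad6, Smad7, Skil, Id1, Id3, Snai1, Pmepa1 and Atoh8. Smad7, which Klf10 is known to repress, stood at 9.09, 8.99 and 8.98 in BMP6 and at 7.37, 7.17 and 7.34 in vehicle. It was higher with BMP6 on the same arrays on which Klf10 was higher (a log2 difference of 1.72, SE 0.08, limma adjusted p = 3.93e-05). Whether Klf10 acted on Smad7 in these cells was not tested. Skil, a SMAD co-repressor, had a log2 fold change of 1.47 (SE 0.08). Ski, its homologue, stood at 0.08 (SE 0.10) and did not pass, and neither did Tgif1, another SMAD co-repressor, at -0.01 (SE 0.11).

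Of 14 genes named as targets of Klf factors, 1 rose, Smad7, and 0 fell, and the median log2 fold change was -0.01. Tgfb1 was measured at -0.25 (SE 0.13), the cell-cycle inhibitor Cdkn1a at -0.14 (SE 0.10), the related Cdkn2b at -0.15 (SE 0.11) and Smad2 at 0.10 (SE 0.09), and none of these 4 passed. Klf2, Klf4, Klf6 and Klf10 are also among the genes that serum induces early. Of 15 other serum-inducible early genes 1 rose, the phosphatase Dusp1 (1.66-fold, limma adjusted p = 0.0115), with 4 higher and 2 lower at an unadjusted p under 0.05. Csrnp1 was at 1.52-fold (adjusted p = 0.0675), Junb at 1.36-fold (adjusted p = 0.204), Egr1 at 0.767-fold and Myc at 0.838-fold (adjusted p = 1 for both), none past the threshold. With replicate number as a block Csrnp1 passed (limma adjusted p = 0.0133), as did the AP-1 gene Fosb (log2 fold change 0.55, adjusted p = 0.0143, against 0.953 without the block), while Junb did not (adjusted p = 0.0684).

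By the likeness of its values over the 6 arrays, Klf10 lay nearest to Csrnp1 (Pearson r = 0.995), Csf1 (0.994), Atoh8 (0.994), Apaf1 (0.993) and Id4 (0.993), among 10080 other genes above the median mean. Any gene higher in all BMP6 arrays scores high on this measure, and the best of so many genes over 6 arrays are high in any case. Atoh8, a bHLH factor, was called (1.78-fold, limma adjusted p = 0.0128), and Id4, an inhibitor of bHLH factors, was not (log2 fold change 0.39, adjusted p = 0.277). Csf1, a macrophage growth factor, and Apaf1, the scaffold of the apoptosome, had small differences of 0.25 and 0.26 (adjusted p = 1). With the group means removed, the nearest were Lamc1, Wdr26, Thap1, Efna4 and Bicral (r = 0.992 to 0.996), whose log2 fold changes lay between -0.04 and 0.11.

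Start-site sequences from RefSeq (GRCm38.p6, 250 bases before to 50 after the start) were matched for 8 of the 10 members; Klf5 and Klf10 have no entry in the table used. The expression files name no build. They are shown for Klf11, the TGF-beta inducible gene whose estimate lay close to 0, and for Klf4 and Klf3, the members with the highest fold changes after Klf10. Capitals mark the SMAD box GTCT or its reverse complement AGAC and the GC-rich elements GGCGCC and GGAGCC (reverse complement GGCTCC), to which SMAD proteins are known to bind in BMP and TGF-beta responsive genes.
Klf11, chr12:24651121-24651420, plus strand: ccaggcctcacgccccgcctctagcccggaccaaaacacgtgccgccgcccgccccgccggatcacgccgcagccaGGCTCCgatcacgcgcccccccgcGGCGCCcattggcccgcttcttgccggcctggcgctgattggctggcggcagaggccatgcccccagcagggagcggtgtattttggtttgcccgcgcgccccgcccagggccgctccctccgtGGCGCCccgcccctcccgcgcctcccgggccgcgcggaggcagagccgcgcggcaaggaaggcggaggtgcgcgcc
Klf4, chr4:55532426-55532725, minus strand: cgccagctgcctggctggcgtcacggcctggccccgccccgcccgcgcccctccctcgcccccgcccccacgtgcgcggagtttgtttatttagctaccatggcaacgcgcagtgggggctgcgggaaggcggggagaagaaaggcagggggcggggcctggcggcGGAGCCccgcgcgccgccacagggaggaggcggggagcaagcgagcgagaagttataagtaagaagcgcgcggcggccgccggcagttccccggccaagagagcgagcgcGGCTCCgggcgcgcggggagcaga
Klf3, chr5:64803271-64803570, plus strand: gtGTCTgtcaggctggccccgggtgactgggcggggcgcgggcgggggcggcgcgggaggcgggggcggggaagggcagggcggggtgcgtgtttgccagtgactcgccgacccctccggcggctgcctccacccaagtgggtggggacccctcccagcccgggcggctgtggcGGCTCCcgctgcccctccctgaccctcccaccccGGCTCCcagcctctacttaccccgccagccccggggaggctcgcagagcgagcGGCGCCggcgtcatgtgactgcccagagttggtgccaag

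In these windows Klf11 had 0 SMAD boxes, 2 GGCGCC elements and 1 GGAGCC element. Klf4 had 0, 0 and 2, and Klf3 had 1, 1 and 2. The SMAD box was found in 5 of the 8 members and in 88.0% of 32851 RefSeq windows, GGCGCC in 2 of 8 and 11.9%, and GGAGCC in 7 of 8 and 30.8%. The Klf box CACCC or GGGTG, which can share letters with a neighbouring SMAD box, was found in 5 of 8 and 57.5%, with 0 matches for Klf11, 0 for Klf4 and 5 for Klf3. The windows of the members are rich in G and C, from 58.3% in Klf7 to 77.7% in Klf11, and base composition alone changes how often such letters occur.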

How the data were processed

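The deposited values were log2 expression for every probe set on each array, computed by the authors with RMA (oligo package), per the submitters' processing notes. The sources used here name no version, array type or annotation. The 2 deposited tables differed by at most 5e-09. RMA gives the probe values of all arrays a common distribution before they are summarized, which hides any shift common to most transcripts. The summarized values were close but not identical in distribution, with array medians of 6.02 to 6.10 over all probe sets. Arrays carry no read depth, and their number limits the precision.

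Of 34760 probe sets, 21893 carried a symbol. The brightest probe set stood for a gene, which left 20163 genes. The groups were compared with limma 3.58.1 under R 4.3.3 (lmFit, eBayes, two-sided, no covariate, Benjamini-Hochberg over all genes). SDs are over 3 arrays, and SEs and intervals are those of the moderated test.

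The members and gene lists were chosen with earlier results of these data known. Named genes were the 10 members, list genes past the threshold, otherwise up to 3 per list with the lowest p, and the 5 genes most like Klf10. Genes without a call named from lists that held one were chosen after their values were seen. So were Sin3a, Sin3b, Ctbp1, Ctbp2, Myog, Cdh15, Itga7, Myf5, Mef2c and Npnt. Sds3 and Klf18 had no probe set under those symbols.

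Titles number the samples of each group 1, 2 and 3 as biological replicates, but the source name of the third vehicle sample gives mouse 2, where that of the third BMP6 sample gives mouse 3. The codes shared in the column headers pair all 3 replicate numbers, with their meaning unstated. The comparison had no block, and blocks were tried as alternatives. Alternatives covered blocks, left-out arrays, filters, scaling, probe sets and the second table.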

Additional observations from a re-analysis of the deposited data

How the results depend on the processing

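Over 16 alternatives, Klf10 was higher in all 16 and past the threshold in 15, with log2 fold changes of 1.17 to 1.43. The exception was the test over all 34760 probe sets, in which it kept its fold change of 1.30 and had an adjusted p of 0.154, 0 members passed, and 3 probe sets were called higher. None of the other 9 members passed in any alternative (lowest limma adjusted p 0.586, Klf4 with the replicate block). With 1 array left out, the log2 fold change of Klf10 was 1.17 to 1.41 (adjusted p 0.00149 to 0.0160), that of Klf11 -0.0487 to 0.0699, which changes sign around 0, and that of Klf5 -0.289 to 0.0134, positive without vehicle replicate 1. The count of genes called higher was 7 to 15 with 1 array left out. It was 12 without the third pair, 15 with mouse as a block, 30 among genes above the median mean, 26 with an intensity trend in the prior and 26 with each array centred on its median. The causes were not tested. The difference between the Klf10 and Klf11 mean and that of the other 8 lay between 0.56 and 0.66.

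Replicate number as a fixed block gave 28 genes called higher and 1 called lower, and as a random block 32 and 0. Klf10 passed with both (replicate block adjusted p = 0.000250), and neither block changed the call of any member. Of the listed genes, the fixed block added Csrnp1 and Fosb, and the random block Csrnp1 and Junb (adjusted p = 0.0139 and 0.0474). Deviations from the group means correlated at 0.315, 0.0475 and 0.434 between arrays of replicate numbers 1, 2 and 3, against -0.439 to 0.179 between different numbers. Deviations within each group cancel out, so a positive correlation with an array forces lower values with the others. This contrast is therefore partly built in. In 5 of 6 arrays the highest correlation was with the own number, the exception being vehicle replicate 2 (0.179 with BMP6 replicate 1). The codes in the column headers pair the arrays by replicate number, whereas the source names do not do so for the third. With 3 arrays a group, small differences such as those of Klf2, Klf3 and Klf4 cannot be settled.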
